A study of Homo sapiens with 12 samples.

Results

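The genes of glucose, lactate and amino acid transporters were taken as the protein-coding genes whose symbol is SLC1A, SLC2A, SLC7A, SLC16A or SLC38A followed by a number. They are 58 of the 17665 protein-coding genes and of the 32152 genes listed in all, with 7 of the SLC1A, 14 of the SLC2A, 12 of the SLC7A, 14 of the SLC16A and 11 of the SLC38A family. RNA was sequenced from MDA-MB-231 and Hs-578T, both established lines of triple-negative breast cancer, in 12 libraries that fall into 6 groups of 2. In each line there were parental controls, cells labelled ERK5-ko, in which CRISPR guides were aimed at MAPK7, the gene of the kinase ERK5, and cells labelled MEK5DD for a MEK5 that is always active and stands directly above ERK5. The parental controls carry no edit or agent in their labels, and have passage labels 29 and 30 in MDA-MB-231 and 83 and 84 in Hs-578T. The passage labels were 7 and 8 for MDA-MB-231 ERK5-ko, 10 and 11 for MDA-MB-231 MEK5DD, and 8 and 9 for both Hs-578T ERK5-ko and Hs-578T MEK5DD. Against parental controls, the effects of passage and of genotype cannot be told apart. MDA-MB-231 ERK5-ko cells descend from a single surviving clone and Hs-578T ERK5-ko cells from sorted single cells, of which the clone sequenced is not given, and how MEK5DD was put into the cells is not given in the sources used here. The lines were kept in DMEM to which serum, essential and non-essential amino acids, pyruvate and insulin had been added.

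Solute carriers move small molecules across membranes. GLUT proteins of the SLC2A family let glucose and other sugars into cells down their gradient, and cells with high glycolysis release the lactate they make, together with a proton, through monocarboxylate transporters (MCT) of the SLC16A family, which need the chaperone basigin or embigin to reach the surface. SLC1A proteins take up glutamate or exchange small neutral amino acids such as glutamine, SLC38A proteins take up glutamine and alanine with sodium, and SLC7A proteins are either carriers of cationic amino acids such as arginine or the light chains that pair with the heavy chain SLC3A2 to exchange leucine, cystine and others. Many tumours carry more GLUT1 and MCT4 than their tissue of origin, and amino acid carriers of this kind feed glutamine, leucine and cystine to breast cancer cells.

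The libraries held between 20248162 and 27791195 reads, which were recovered from the deposited RPKM values. RPKM divides the reads of each gene by gene length and by library total. Of the 58 transporter genes, 39 were tested, having reached an RPKM of 0.5 in 2 libraries or more, and 19 did not. Values were fitted as log2(RPKM + 0.5) with limma over all 13737 protein-coding genes that met this filter, a gene was said to rise or fall at an adjusted p under 0.05 (Benjamini-Hochberg), and fold changes on this scale understate those of low genes. With 2 libraries a group, the smallest p of a two-sided exact permutation test is 0.333 for any one gene, so the spread was estimated over all 12 libraries. Nothing says that replicates came from separate cultures, and p-values then measure only the spread between these libraries. MAPK7 RNA was not lower in libraries labelled ERK5-ko, at an RPKM of 16.3 and 17.8 against 13.3 and 14.3 in MDA-MB-231 parental controls, and at 17.8 and 18.1 against 13.97 and 15.98 in Hs-578T. Each direction given for the libraries labelled ERK5-ko therefore refers to their label. RNA does not measure protein, and the study reports from Western blots that ERK5 protein was knocked out in both lines. Its methods also name qRT-PCR as a check of the knockout in the clones, but its text gives no MAPK7 value from it. MAP2K5, the gene of MEK5, was at an RPKM of 188.5 and 184 in MDA-MB-231 MEK5DD against 12.9 and 13.6 in parental controls, but only at 21.3 and 23.8 against 14.6 and 16.9 in Hs-578T. The replicates of Hs-578T MEK5DD stood further apart than those of any other group, with 20.8% of all tested genes more than 0.4 log2 units apart (12.5% in Hs-578T parental controls and 1.43% to 2.80% in the other 4 groups). Of the triple-negative markers, ESR1 was at an RPKM of at most 0.120, PGR of at most 0.348 and ERBB2 between 27.8 and 56.9, and VIM, a mesenchymal marker, was at 1598 or more in every library. VIM rose in MDA-MB-231 MEK5DD by 1.04, from a mean of 1680 to 3455, and ERBB2 fell in MEK5DD by 0.34 in MDA-MB-231 and by 0.40 in Hs-578T. The epithelial markers EPCAM, KRT8 and KRT18 rose in MDA-MB-231 ERK5-ko, by 0.39, 0.69 and 0.88. EPCAM fell in MDA-MB-231 MEK5DD by 1.30, and in Hs-578T it was at most at 0.0862. KRT18 rose by 1.71 and KRT8 fell by 0.75 in Hs-578T ERK5-ko, and KRT8 rose by 0.43 in Hs-578T MEK5DD. The part of these markers in the results below was not tested. Of 7 markers of other cells, PTPRC, CD3E, CDH5, ALB and ADIPOQ were under the filter, whereas CD68 lay between 23.2 and 108 and PECAM1 between 0.194 and 6.48. CD68 rose in MDA-MB-231 MEK5DD by 0.70 and fell in Hs-578T ERK5-ko by 0.73, and PECAM1 fell by 0.73 in MDA-MB-231 ERK5-ko and by 0.76 and 0.84 in MEK5DD of MDA-MB-231 and Hs-578T. The part of these genes in the results below was not tested.

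The transporters differed more between the cell lines than with either label. In parental controls, 14 of the 39 tested members were higher in MDA-MB-231 (46.0% of all tested genes were) and 18 were higher in Hs-578T (31.3% of all). Their median log2 difference, MDA-MB-231 minus Hs-578T, was -0.18 against 0.19 over all tested genes, and the median size of the difference was 1.18 against 0.71. Against parental controls, MDA-MB-231 ERK5-ko had 7 members higher (6.91% of all tested genes) and 4 lower (10.4% of all). Hs-578T ERK5-ko had 6 higher (19.7% of all) and 14 lower (19.7% of all). MDA-MB-231 MEK5DD had 9 higher (17.5% of all) and 13 lower (23.8% of all), and Hs-578T MEK5DD had 1 higher (6.44% of all) and 6 lower (17.0% of all). As shares of the 39 members these are 17.9% and 10.3%, 15.4% and 35.9%, 23.1% and 33.3%, and 2.56% and 15.4%, and the shares that stood furthest above those of all genes were the members lower in Hs-578T ERK5-ko and those higher in MDA-MB-231 ERK5-ko. Median log2 fold changes of the members lay between -0.10 and -0.01 in these 4 comparisons and those of all tested genes between -0.08 and 0.01. The median size of the members' change was 0.18 to 0.41 and that of all tested genes 0.17 to 0.27. Both were below their sizes between the lines, so this order is not particular to the transporters. Without either parental replicate or ERK5-ko replicate 1 of MDA-MB-231, 4 members in place of 7 were higher in MDA-MB-231 ERK5-ko, and without that ERK5-ko replicate 2 in place of 4 were lower. Without replicate 2 of Hs-578T MEK5DD, 11 members in place of 6 were lower in that group. Without replicate 1 of Hs-578T ERK5-ko, 9 in place of 14 were lower in Hs-578T ERK5-ko, and without replicate 2 of it 2 in place of 6 were higher. Members such as SLC38A4 and SLC7A4 met the filter only through the line in which they are expressed, so a difference between the lines was built into them.

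**Figure D1:**
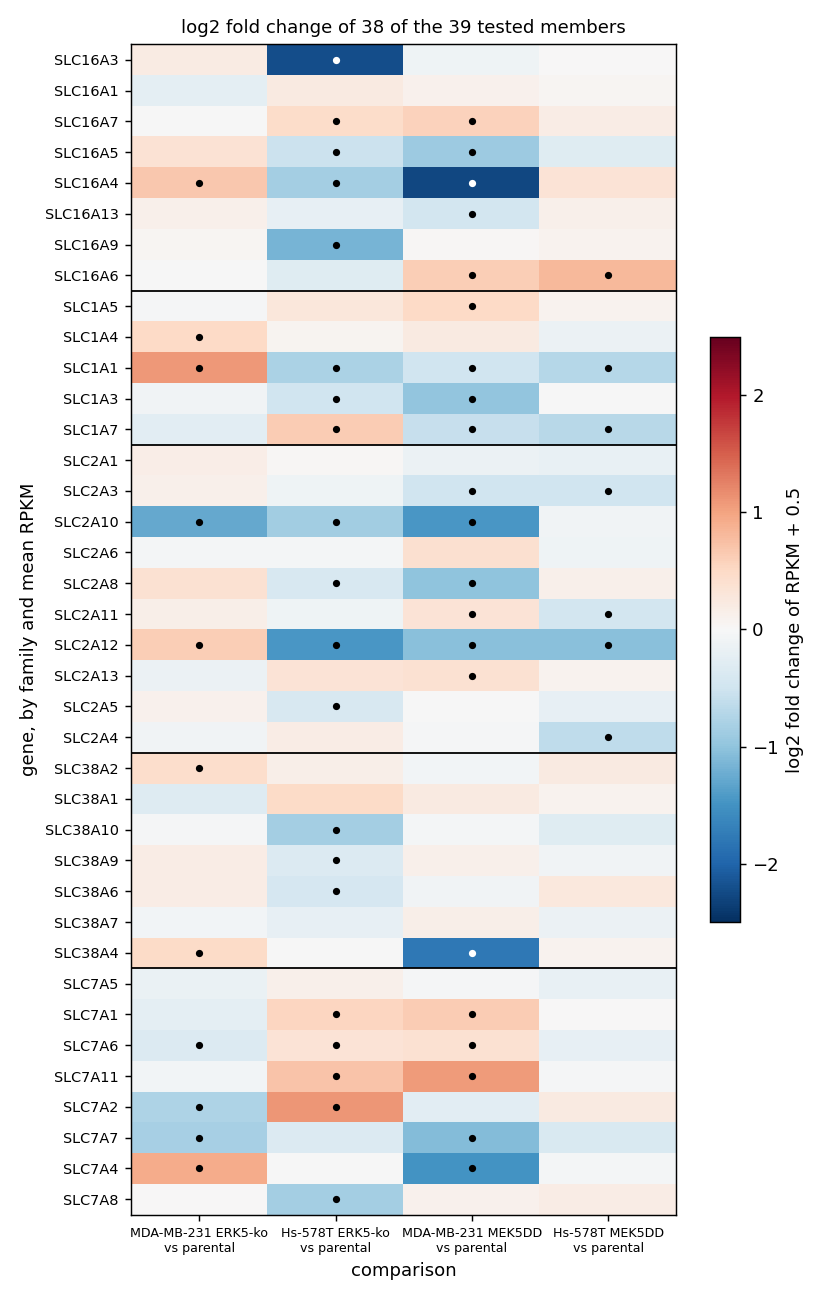
Log2 fold changes of RPKM + 0.5 of 38 of the 39 tested transporters (rows, by family and mean RPKM) in the 4 comparisons with parental controls (columns). Dots mark values at an adjusted p under 0.05, and the deepest colours are SLC16A4 at -2.27 in MDA-MB-231 MEK5DD and SLC16A3 at -2.21 in Hs-578T ERK5-ko.

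Libraries labelled ERK5-ko moved several transporters in opposite directions in the cell lines. Of the members that passed in both lines, SLC16A4, SLC1A1 and SLC2A12 rose in MDA-MB-231 and fell in Hs-578T, SLC7A2 and SLC7A6 fell in MDA-MB-231 and rose in Hs-578T, and only SLC2A10 fell in both, while 0 rose in both. The 5 in opposite directions are 12.8% of the tested members, against 7.42% of all tested genes, and 1.25% of all genes fell in both lines and 0.874% rose in both. SLC1A1, the glutamate and cysteine carrier EAAT3, was at an RPKM of 4.33 and 3.36 in MDA-MB-231 parental controls and 8.91 and 8.44 in ERK5-ko, whereas in Hs-578T it went from 31.3 and 27.0 to 17.0 and 16.3. SLC2A12, the sugar carrier GLUT12, was at 7.54 and 7.22 against 11.8 and 11.4 in MDA-MB-231, and at 3.88 and 4.46 against 1.16 and 1.23 in Hs-578T. SLC16A4, a less studied member of the monocarboxylate carriers, was at 3.65 and 4.39 against 7.15 and 6.33 in MDA-MB-231, and at 5.57 and 5.27 against 2.69 and 2.89 in Hs-578T. In each of these comparisons the libraries of the groups did not overlap. The log2 fold changes were 1.09 and -0.79 for SLC1A1, 0.62 and -1.46 for SLC2A12 and 0.68 and -0.85 for SLC16A4, and the differences between the lines were 1.87 (standard error 0.17, adjusted p = 1.63e-05), 2.08 (0.15, adjusted p = 2.95e-06) and 1.53 (0.17, adjusted p = 5.79e-05). All 3 fell in MDA-MB-231 MEK5DD, by 0.51, 1.04 and 2.27 on the log2 scale. The fall of SLC1A1 was lost without parental replicate 1 (adjusted p = 0.089) or MEK5DD replicate 1 (adjusted p = 0.0517) and under quantile normalization (adjusted p = 0.0606). In Hs-578T MEK5DD, SLC1A1 and SLC2A12 fell by 0.72 and 1.04, while SLC16A4 stood at 0.35 (adjusted p = 0.0632). It passed with a pseudocount of 1, with median-ratio or quantile scaling or without MEK5DD replicate 2 (adjusted p between 0.0276 and 0.0491).

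The bases before the start of these 3 genes are given here because their RNA moved together in each ERK5-ko comparison, as RefSeq lists them for GRCh38.p14, up to the base before the deposited gene. They are 226 bases at chr9:4490218-4490443 on the plus strand, 238 bases at chr6:134052637-134052874 on the minus strand and 194 bases at chr1:110391083-110391276 on the minus strand, and each run reads 5′ to 3′ on the strand of its gene. Capitals mark matches on either strand to the GC box GGGCGG, the AP-1 element TGANTCA or the hypoxia response core GCGTG.
SLC1A1: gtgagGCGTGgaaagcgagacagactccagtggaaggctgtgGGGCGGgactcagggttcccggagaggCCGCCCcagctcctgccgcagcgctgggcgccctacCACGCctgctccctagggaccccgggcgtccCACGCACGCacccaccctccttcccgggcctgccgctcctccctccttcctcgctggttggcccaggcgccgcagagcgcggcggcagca
SLC2A12: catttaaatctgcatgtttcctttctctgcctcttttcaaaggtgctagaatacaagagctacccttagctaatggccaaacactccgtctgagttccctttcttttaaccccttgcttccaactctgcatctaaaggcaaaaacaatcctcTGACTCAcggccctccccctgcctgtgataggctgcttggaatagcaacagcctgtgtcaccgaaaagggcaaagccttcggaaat
SLC16A4: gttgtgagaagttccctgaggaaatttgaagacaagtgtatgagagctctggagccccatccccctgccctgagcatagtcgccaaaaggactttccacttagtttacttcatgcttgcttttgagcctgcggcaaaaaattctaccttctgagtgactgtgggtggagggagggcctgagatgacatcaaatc
SLC1A1 holds 2 GC boxes and 4 GCGTG cores, SLC2A12 holds 1 AP-1 element, and SLC16A4 holds no match to any motif searched. GC boxes occur in 42.3% of 27305 RefSeq promoters of 250 bases, one per gene symbol, and GCGTG in 31.9% and TGANTCA in 6.6%. The other motifs searched were the hypoxia response core ACGTG (18.7% of promoters), the E-box CACGTG that contains it (6.5%), the ATF4 response element TGATGNAAN (3.2%), the antioxidant response element TGACNNNGC (3014 promoters) and the MEF2 element (0.5%), and 0 of them are in these 3 windows. Promoters were listed for 44 of the 58 transporters, of which 23 held a GC box, 19 GCGTG, 15 ACGTG, 6 the E-box, 4 the antioxidant response element, 1 the ATF4 response element, 1 the AP-1 element and 0 the MEF2 element. A match is a string of letters and does not show binding.

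**Figure D2:**
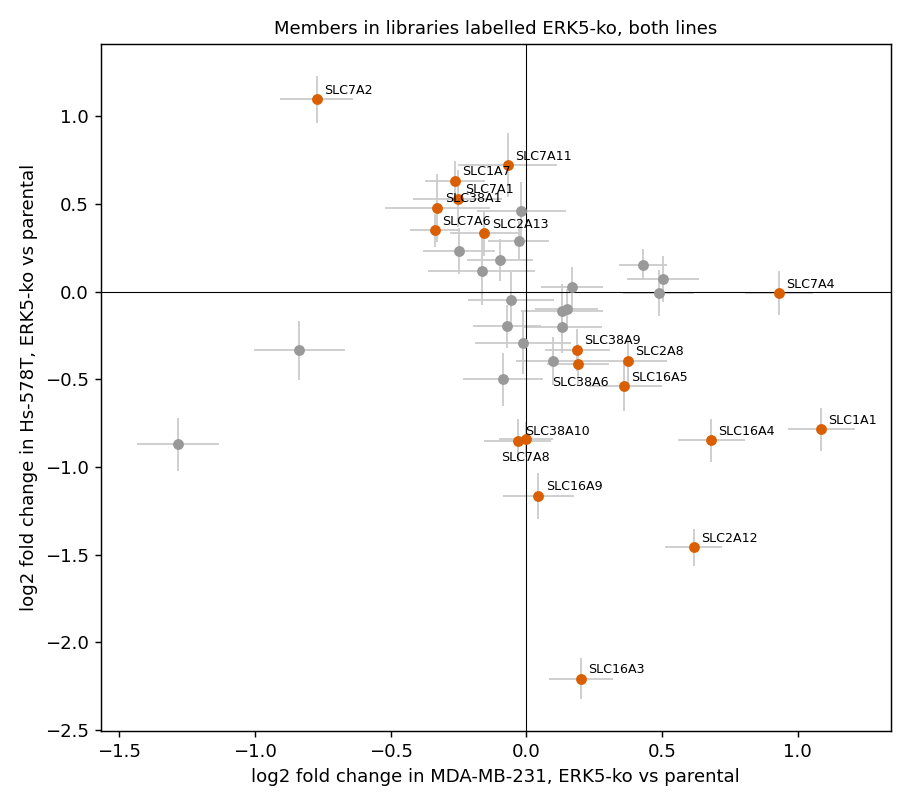
Log2 fold change of RPKM + 0.5 in ERK5-ko against parental controls for MDA-MB-231 (x axis) and Hs-578T (y axis) for 38 of the 39 tested transporters, with bars of 1 standard error on each side. Orange, labelled points are the 19 members whose difference between the lines had an adjusted p under 0.05, and SLC1A1, SLC2A12, SLC16A4 and SLC7A2 lie on opposite sides of 0.

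Over all members, the ERK5-ko effect was higher in MDA-MB-231 than in Hs-578T for 12 (18.3% of all tested genes) and lower for 7 (21.5% of all). The latter count was 3 without any of 6 of the 8 libraries compared, namely both MDA-MB-231 parental replicates, MDA-MB-231 ERK5-ko replicate 2, Hs-578T parental replicate 1 and both Hs-578T ERK5-ko replicates. SLC7A2, the cationic amino acid carrier CAT2 (chromosome 8), was at an RPKM of 3.371 and 2.998 in MDA-MB-231 parental controls and 1.74 and 1.57 in ERK5-ko, and at 2.57 and 3.18 against 6.42 and 6.98 in Hs-578T. Its log2 fold changes were -0.77 and 1.10, a difference of -1.87 (standard error 0.19, adjusted p = 2.94e-05). SLC7A6, the light chain y+LAT2 that exchanges cationic for neutral amino acids, moved the same way by less, from 24.6 and 23.6 to 18.7 and 19.2 and from 17.3 and 16.8 to 21.1 and 22.6, with a difference of -0.69 (adjusted p = 0.0018). The fall of SLC7A6 in MDA-MB-231 no longer passed when any one of the 4 libraries compared was left out (adjusted p between 0.0986 and 0.186), and the rise in Hs-578T without ERK5-ko replicate 2 (adjusted p = 0.0885) or with the Hs-578T libraries alone (adjusted p = 0.0858).

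Among the glucose carriers, SLC2A1 (ENSG00000117394.19, chromosome 1, 42925375 to 42959173), the gene of the basal glucose carrier GLUT1, was the highest SLC2A gene in all 12 libraries and did not pass in any comparison with parental controls. Its RPKM was 698 and 761 in MDA-MB-231 parental controls, 792 and 848 in ERK5-ko and 636 and 674 in MEK5DD, against 199 and 208, 217 and 198, and 159 and 198.5 in the same groups of Hs-578T. The MDA-MB-231 libraries all lay above those of Hs-578T, and parental controls differed by 1.84 on the log2 scale (standard error 0.12, adjusted p = 3.49e-08). SLC2A1 made up 90.8% to 92.3% of the summed SLC2A RPKM in MDA-MB-231 and 71.4% to 79.4% in Hs-578T. Within MDA-MB-231 it was higher in ERK5-ko than in MEK5DD by 0.32 (adjusted p = 0.0323), a call lost when any one of the 4 libraries was left out (adjusted p between 0.0632 and 0.164). In Hs-578T MEK5DD its log2 fold change was -0.20 (adjusted p = 0.252), and without replicate 2 it was -0.36 (adjusted p = 0.0219).

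SLC2A3 (ENSG00000059804.15, chromosome 12, 7919230 to 7936275), the gene of the high-affinity glucose carrier GLUT3, was expressed almost only in MDA-MB-231. Its RPKM was 31.3 and 30.4 in parental controls, 33.6 and 34.1 in ERK5-ko and 21.7 and 22.0 in MEK5DD. In Hs-578T it was 0.244 and 0.302, 0.106 and 0.345, and 0 and 0.102, so that the parental means differed 113-fold. SLC2A3 fell in MDA-MB-231 MEK5DD by 0.49 on the log2 scale (standard error 0.15, adjusted p = 0.0221), a call lost when any one of the 4 libraries was left out (adjusted p between 0.0798 and 0.105) and with a pseudocount of 0.1 (adjusted p = 0.282). The same fall of 0.49 in Hs-578T MEK5DD (adjusted p = 0.0352) rests on 3 reads or fewer in each MEK5DD library, and is at least 2.66-fold against that floor of 3 reads a library. It was lost without either parental replicate or MEK5DD replicate 1 (adjusted p between 0.0625 and 0.165), with a pseudocount of 1 (0.0849), without the filter (0.062), under quantile normalization (0.147) and with the Hs-578T libraries alone (0.146). SLC2A14, a duplicate of this gene whose longest coding sequence is 96.8% identical, had an RPKM between 0.163 and 0.340 in MDA-MB-231 and 0 in all Hs-578T libraries, and since reads can fall on either copy its level is uncertain. The pseudogene SLC2A3P1 was listed at a mean RPKM of 13.8, 11.5 and 12.9 in parental controls, ERK5-ko and MEK5DD of MDA-MB-231 and of 5.71, 11.2 and 6.35 in those of Hs-578T.

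Among the other sugar carriers, SLC2A10, the gene of GLUT10, was at 30.1 and 32.0 in Hs-578T parental controls and at 18.0 and 15.6 in ERK5-ko, a fall of 0.87 (standard error 0.15, adjusted p = 0.000933; 0.063 with a pseudocount of 0.1), and at 30.2 and 28.4 in MEK5DD. In MDA-MB-231 it was at 1.04 and 0.988 in parental controls, 0.243 and 0.0220 in ERK5-ko and 0.0457 and 0.0594 in MEK5DD, falls of 1.28 (adjusted p = 0.000239) and 1.46 (adjusted p = 1.45e-05). With 3 reads or fewer in each MDA-MB-231 MEK5DD library, the latter fall is at least 15.9-fold. Of the 5 tested class III carriers, the subfamily of SLC2A6, SLC2A8, SLC2A10, SLC2A12 and SLC2A13, 3 fell in Hs-578T ERK5-ko and 3 in MDA-MB-231 MEK5DD, in both cases SLC2A8, SLC2A10 and SLC2A12, and SLC2A13, a carrier of myo-inositol, rose in the latter. Of all tested genes, 19.7% fell in Hs-578T ERK5-ko and 23.8% in MDA-MB-231 MEK5DD. The SLC2A13 call was lost when any one of the 4 libraries was left out (adjusted p between 0.0678 and 0.171) and with a pseudocount of 0.1 (0.0595). SLC2A8, a mainly intracellular sugar carrier, fell in MDA-MB-231 MEK5DD (-0.9999 on the log2 scale, adjusted p = 0.000202). It fell by 0.39 in Hs-578T ERK5-ko (adjusted p = 0.0498), a call lost without parental replicate 1 or either ERK5-ko replicate (adjusted p between 0.066 and 0.336), with a pseudocount of 1 (0.0555), without the filter (0.0754), under quantile normalization (0.0573), with limma voom on the recovered reads (0.0977) and with the Hs-578T libraries alone (0.17). SLC2A6 did not pass against parental controls in any group. SLC2A4, the insulin-regulated carrier GLUT4, had an RPKM of at most 1.31 and fell by 0.64 in Hs-578T MEK5DD (adjusted p = 0.00345).

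**Figure D3:**
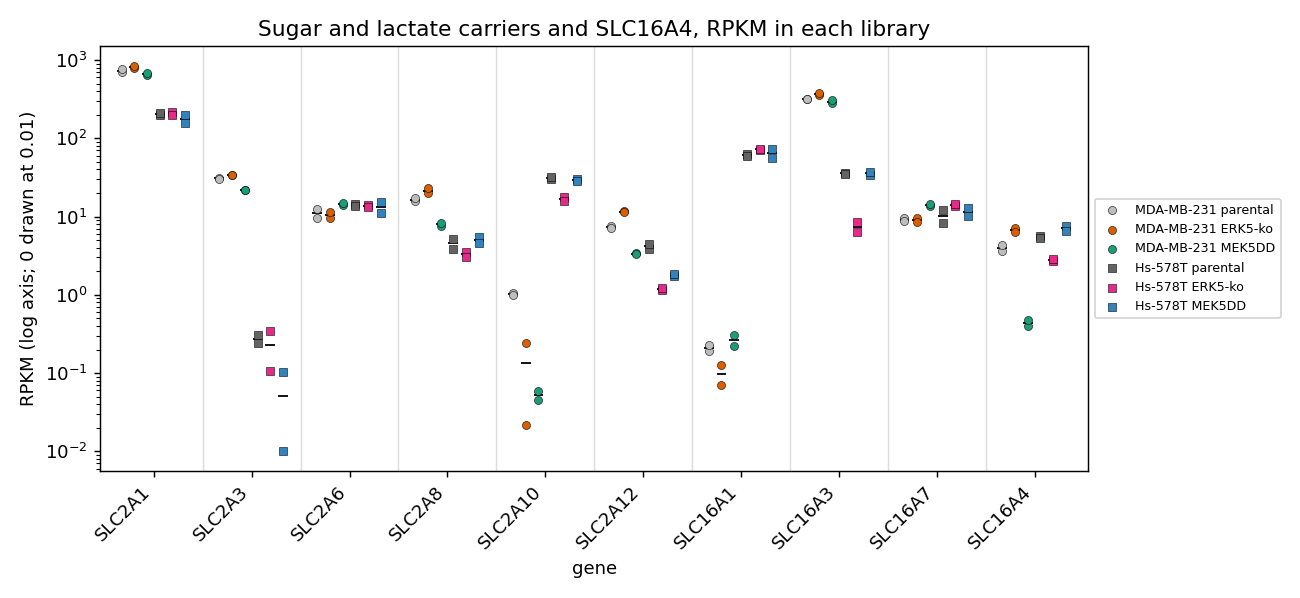
RPKM (log axis) of sugar and lactate carriers and of SLC16A4 in each of the 12 libraries, with circles for MDA-MB-231, squares for Hs-578T, colours for the groups and short lines for group means of 2 libraries. SLC16A1 and SLC2A10 sit far higher in Hs-578T and SLC2A3 and SLC16A3 in MDA-MB-231, and SLC16A3 drops to 8.44 and 6.30 in Hs-578T ERK5-ko.

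The lines expressed different genes of lactate transport. SLC16A3 (ENSG00000141526.14, chromosome 17, 82228397 to 82261129), the gene of the lactate exporter MCT4, had an RPKM of 319 and 314 in MDA-MB-231 parental controls, 352 and 376 in ERK5-ko and 279 and 307 in MEK5DD, and made up 90.1% to 91.3% of the summed SLC16A RPKM there. SLC16A1 (ENSG00000155380.11, chromosome 1, 112911847 to 112957013), the gene of MCT1, which carries lactate in both directions, was close to silent in the same libraries, at 0.0699 to 0.304, which are 3 to 16 reads. In Hs-578T, SLC16A1 was at 62.2 and 60.2 in parental controls, 71.4 and 72.5 in ERK5-ko and 55.4 and 73.1 in MEK5DD. Parental controls differed by a log2 fold change of -6.44 for SLC16A1 (standard error 0.13, adjusted p = 2.14e-12) and 3.14 for SLC16A3 (standard error 0.12, adjusted p = 3.53e-10). SLC16A1 did not pass against parental controls in any group. The antisense RNA SLC16A1-AS1 was listed at a mean RPKM of at most 0.0326 in MDA-MB-231 groups and of 1.73 to 3.32 in Hs-578T groups.

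In Hs-578T ERK5-ko, SLC16A3 showed the largest fall of the tested members, from 36.4 and 34.7 in parental controls to 8.44 and 6.30. The log2 fold change was -2.21 (standard error 0.12, adjusted p = 1.98e-07), and both libraries lay far below the controls and below Hs-578T MEK5DD (34.3 and 37.4). The ratio of SLC16A3 to SLC16A1 RPKM was 0.585 and 0.577 in Hs-578T parental controls, 0.619 and 0.511 in MEK5DD and 0.118 and 0.0869 in ERK5-ko. In MDA-MB-231 ERK5-ko the log2 fold change was 0.20 (adjusted p = 0.285), and the difference between the lines was 2.41 (standard error 0.17, adjusted p = 2.64e-06). The fall passed under each of the 12 alternatives run for it, at log2 fold changes between -2.40 and -2.01. SLC16A3 overlaps the gene CSNK1D on the opposite strand over 22107 bases of its span, and whether reads were counted by strand is not given in the sources used here. The 212 bases before the deposited gene are shown because this member fell most in Hs-578T ERK5-ko. They lie at chr17:82228185-82228396 on the plus strand of GRCh38.p14, and capitals mark 2 GC boxes, the only one of the motifs above with a match here.
SLC16A3: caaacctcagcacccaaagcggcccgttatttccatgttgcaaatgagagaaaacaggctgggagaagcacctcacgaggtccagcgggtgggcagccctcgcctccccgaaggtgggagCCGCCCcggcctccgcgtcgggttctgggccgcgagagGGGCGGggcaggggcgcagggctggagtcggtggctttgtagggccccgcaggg
SLC16A7, the gene of the high-affinity carrier MCT2, was at a similar level in all groups, between 8.26 and 14.4. It rose in MDA-MB-231 MEK5DD by 0.57 (standard error 0.17, adjusted p = 0.0159), from 9.48 and 8.84 to 13.5 and 14.3, and in Hs-578T ERK5-ko by 0.46 (adjusted p = 0.0455), from 8.26 and 12.3 to 13.7 and 14.4. The first call was lost when any one of the 4 libraries was left out (adjusted p between 0.0531 and 0.0935). The second was lost without parental replicate 1 or either ERK5-ko replicate (adjusted p between 0.116 and 0.382), without the filter (0.0752), under median-ratio scaling (0.0502) and with the Hs-578T libraries alone (adjusted p = 0.178). SLC16A8, the gene of MCT3 of the retinal pigment epithelium, had 1 read over the 12 libraries.

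Of the other SLC16A genes, SLC16A4 nearly vanished from MDA-MB-231 MEK5DD, at 0.397 and 0.478, or -2.27 on the log2 scale against parental controls (standard error 0.12, adjusted p = 7.51e-08), and the difference between the lines in the MEK5DD effect was -2.61 (adjusted p = 8.94e-07). Of the 6 tested genes in this group, 3 fell in Hs-578T ERK5-ko (SLC16A4, SLC16A5 and SLC16A9) and 3 in MDA-MB-231 MEK5DD (SLC16A4, SLC16A5 and SLC16A13). The shares of all tested genes that fell there were 19.7% and 23.8%. In Hs-578T, SLC16A5 had only 11 and 5 reads in parental controls and 1 and 1 in ERK5-ko, and it met the filter only through MDA-MB-231. SLC16A5 in Hs-578T was lost without parental replicate 1 (adjusted p = 0.0852) or ERK5-ko replicate 2 (0.0548), and SLC16A13 without either parental replicate or MEK5DD replicate 1 (adjusted p between 0.0623 and 0.257), under quantile normalization (0.106) and with the MDA-MB-231 libraries alone (0.057). SLC16A9 fell by 1.16 in Hs-578T ERK5-ko (adjusted p = 4.97e-05), from 2.53 and 2.37 to 0.747 and 0.884. SLC16A6 met the filter only through the 2 Hs-578T MEK5DD libraries, at 0.639 and 0.606, so a high value in that group was built in. It was the only member that rose in MEK5DD of both lines (2.56% of the tested members, against 1.3% of all tested genes). SLC1A1, SLC1A7, SLC2A12 and SLC2A3 fell in both (10.3%, against 3.67% of all). SLC2A11 passed in opposite directions (2.56%, against 5.95% of all). Calls of SLC1A1, SLC2A3 and SLC2A11 among these were lost under alternatives. The rises of SLC16A6 were 0.62 in MEK5DD of MDA-MB-231 and 0.82 in that of Hs-578T. Its RPKM was at most 0.275 in parental controls. The former call was lost without parental replicate 2 (adjusted p = 0.0912) or MEK5DD replicate 1 (0.156), and the latter with the Hs-578T libraries alone (0.0556).

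Among the glutamate carriers and neutral amino acid exchangers, SLC1A5 (ENSG00000105281.12, chromosome 19, 46774883 to 46788594), the gene of the glutamine exchanger ASCT2, was the highest SLC1A gene in all libraries and made up 80.8% to 92.6% of the family's summed RPKM. In MDA-MB-231 it was at 157 and 168 in parental controls, 153 and 165 in ERK5-ko and 216 and 242 in MEK5DD. It rose in MEK5DD by 0.49 (standard error 0.11, adjusted p = 0.0041), a call lost without MEK5DD replicate 2 (adjusted p = 0.0531). In Hs-578T it was at 328 and 326, 395 and 405.5, and 311 and 388, and parental controls of the lines differed by -1.01 (adjusted p = 5.65e-06). SLC1A4, the related exchanger ASCT1, was at 12.7 and 13.6 in MDA-MB-231 parental controls, 19.6 and 18.1 in ERK5-ko and 15.4 and 15.6 in MEK5DD, and at 42.3 and 45.1, 47.3 and 44.6, and 33.2 and 46.6 in Hs-578T. Its rise of 0.50 in MDA-MB-231 ERK5-ko (adjusted p = 0.0239) was lost when any one of the 4 libraries was left out (adjusted p between 0.0759 and 0.157). All 3 tested glutamate carriers, SLC1A1, SLC1A3 and SLC1A7, fell in MDA-MB-231 MEK5DD, where 23.8% of all tested genes fell. In MDA-MB-231, SLC1A7 had only 20 and 15 reads in parental controls and 2 and 0 in MEK5DD, and it met the filter only through Hs-578T. The fall of SLC1A1 was lost under 3 alternatives, as given above. SLC1A1 was also higher in MDA-MB-231 ERK5-ko than in MEK5DD, by 1.59 (adjusted p = 8.23e-07). SLC1A7, the gene of EAAT5, was at 2.23 and 2.07 in Hs-578T parental controls, rose to 3.73 and 3.49 in ERK5-ko (0.63, adjusted p = 0.000991) and fell to 1.15 and 1.13 in MEK5DD (-0.69, adjusted p = 0.00131).

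Of the light chains and cationic amino acid carriers, SLC7A5 (ENSG00000103257.8, chromosome 16, 87830023 to 87869488), the gene of the leucine exchanger LAT1, did not pass against parental controls in any group. Its RPKM was 119 and 120, 112 and 102, and 113 and 122.5 in parental controls, ERK5-ko and MEK5DD of MDA-MB-231, and 172 and 207, 202 and 208, and 125 and 218 in Hs-578T. The last pair lay far apart, and so did those of several other amino acid carriers: SLC7A1, SLC7A5, SLC7A11, SLC1A4 and SLC38A1 were all more than 0.4 log2 units higher in replicate 2 than in replicate 1 of Hs-578T MEK5DD, as SLC7A11 and SLC38A1 were in Hs-578T parental controls. Without replicate 2, SLC7A5 had a log2 fold change of -0.59 in Hs-578T MEK5DD (adjusted p = 0.00385) in place of -0.19 (adjusted p = 0.526), and SLC7A1 one of -0.31 (adjusted p = 0.0463) in place of 0.01 (adjusted p = 0.977).

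SLC7A11 (ENSG00000151012.13, chromosome 4, 138164097 to 138242349), the gene of the cystine and glutamate exchanger xCT, had the largest rise of the tested members in MDA-MB-231 MEK5DD. It was at 10.7 and 10.2 in parental controls, 10.7 and 9.27 in ERK5-ko and 21.9 and 23.1 in MEK5DD, a rise of 1.07 in MEK5DD (standard error 0.18, adjusted p = 0.000622). In Hs-578T it was at 17.7 and 25.6, 33.5 and 37.3, and 17.3 and 24.9, a rise of 0.72 in ERK5-ko (adjusted p = 0.00893), which no longer passed without parental replicate 1 (0.46, adjusted p = 0.08), without ERK5-ko replicate 2 (adjusted p = 0.0805) or with the Hs-578T libraries alone (adjusted p = 0.0806). The overlapping SLC7A11-AS1 on the opposite strand was listed at 1.67 and 1.73 in MDA-MB-231 parental controls, 2.65 and 2.83 in ERK5-ko and 0.143 and 0.0743 in MEK5DD, the reverse order of SLC7A11 between MEK5DD and the other groups. SLC7A1 (ENSG00000139514.12, chromosome 13, 29509410 to 29595688), the gene of the arginine carrier CAT1, was at 81.4 and 79.8, 69.4 and 65.7, and 126 and 126 in MDA-MB-231, and at 22.7 and 27.2, 36.9 and 35.5, and 20.02 and 31.42 in Hs-578T. It rose in MDA-MB-231 MEK5DD by 0.64 (standard error 0.16, adjusted p = 0.00836) and in Hs-578T ERK5-ko by 0.53 (adjusted p = 0.0236), and the latter call was lost without parental replicate 1, without either ERK5-ko replicate and with the Hs-578T libraries alone (adjusted p between 0.0917 and 0.14). SLC7A1, SLC7A6, SLC7A11 and SLC16A7 were the 4 members that rose both in MDA-MB-231 MEK5DD, of 9 that rose there, and in Hs-578T ERK5-ko, of 6. They are 10.3% of the tested members, against 4.77% of all tested genes that rose in both. In the same comparisons, 7 members fell in both (17.9%, against 6.6% of all). Some of these falls, as that of SLC2A8 in Hs-578T ERK5-ko, were lost when a library was left out. Opposite directions were seen for 1 member (2.56%, against 6.65% of all). For SLC7A6 the call in MDA-MB-231 MEK5DD was lost without parental replicate 2 (adjusted p = 0.0617) or MEK5DD replicate 1 (adjusted p = 0.0501). SLC7A4 had an RPKM of at most 2.63 in MDA-MB-231, where it rose in ERK5-ko by 0.93 and fell in MEK5DD to at most 1 read a library, at least 13.5-fold.

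In the SLC38A family of glutamine and alanine carriers, SLC38A2 (ENSG00000134294.13, chromosome 12, 46358189 to 46372867), the gene of SNAT2, which cells induce when amino acids run short, led its family in all libraries. It was at 197 and 198 in MDA-MB-231 parental controls, 279 and 253 in ERK5-ko and 185 and 190 in MEK5DD, and rose in ERK5-ko by 0.43 (standard error 0.09, adjusted p = 0.0067), a call lost without 3 of the 4 libraries (adjusted p between 0.058 and 0.0712). In Hs-578T it was at 369 and 389, 416 and 428, and 425 and 462, with no passing change against parental controls. SLC38A1, the gene of SNAT1, was at 111 and 98.2, 91.4 and 75.4, and 122 and 122 in MDA-MB-231, and at 90.8 and 123, 139 and 156, and 90.3 and 141 in Hs-578T. It did not pass against parental controls either, although its ERK5-ko effect differed between the lines by -0.81 (adjusted p = 0.0365). That call was lost in 9 alternatives, without the filter and without 8 single libraries, 6 of them of the groups compared (adjusted p between 0.0552 and 0.135). When replicate numbers were blocked, SLC38A2 in Hs-578T MEK5DD (adjusted p = 0.0482) and SLC38A1 in Hs-578T ERK5-ko (0.00494) passed. SLC38A4, the gene of SNAT4, was expressed in MDA-MB-231 and at most at 2 reads a library in Hs-578T. It went from 6.83 and 7.65 in parental controls to 10.7 and 9.96 in ERK5-ko (0.49, adjusted p = 0.0252) and to 2.06 and 1.47 in MEK5DD (-1.78, standard error 0.13, adjusted p = 8.98e-07). The former call was lost when any one of the 4 libraries was left out (adjusted p between 0.0693 and 0.182), with a pseudocount of 0.1 (0.134) and with the MDA-MB-231 libraries alone (0.0679). Of the 4 other tested SLC38A genes, 3 fell in Hs-578T ERK5-ko, where 19.7% of all tested genes fell. SLC38A10 fell most, from 71.0 and 79.4 to 44.6 and 38.5 (-0.85, standard error 0.12, adjusted p = 0.000306), and SLC38A9, the arginine sensor of the lysosome, and SLC38A6 fell by 0.33 and 0.41. The SLC38A9 call was lost without either parental replicate or ERK5-ko replicate 1 (adjusted p between 0.0831 and 0.344), without the filter (0.0567), with limma voom (0.0524) and with the Hs-578T libraries alone (0.187). The SLC38A6 call was lost without parental replicate 1 or either ERK5-ko replicate (adjusted p between 0.0627 and 0.116) and with the Hs-578T libraries alone (0.0811). None of the 4 changed in either MDA-MB-231 comparison with parental controls, where 0 passed in limma and 0 had an unadjusted p under 0.05.

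**Figure D4:**
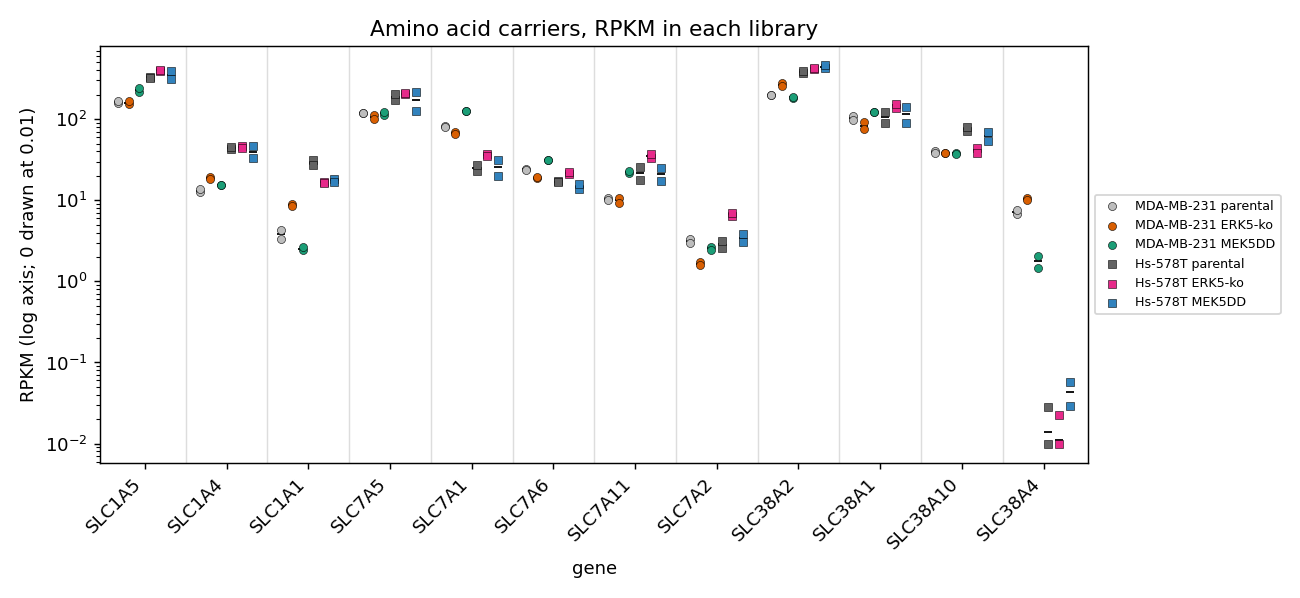
RPKM (log axis) of amino acid carriers in each of the 12 libraries, with circles for MDA-MB-231, squares for Hs-578T, colours for the groups and short lines for group means of 2 libraries. SLC7A11 and SLC7A1 are highest in MEK5DD in MDA-MB-231 and in ERK5-ko in Hs-578T, and SLC38A4 is near 0 in Hs-578T.

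When ERK5-ko was set directly against MEK5DD, 14 members were higher in ERK5-ko (27.1% of all tested genes) and 12 in MEK5DD (27.9% of all) in MDA-MB-231, and 7 were higher in ERK5-ko (30.7% of all) and 11 in MEK5DD (19.2% of all) in Hs-578T, where both groups carry the same passage labels. Without Hs-578T MEK5DD replicate 2, 15 members in place of 7 were higher in Hs-578T ERK5-ko, and without Hs-578T ERK5-ko replicate 2 only 4 were, while in MDA-MB-231 7 in place of 12 were higher in MEK5DD without ERK5-ko replicate 2 or MEK5DD replicate 1. In Hs-578T, SLC16A3 was lower in ERK5-ko by 2.22 (adjusted p = 1.1e-07) and SLC16A4 by 1.20 (adjusted p = 1.35e-05), while SLC1A7 was higher by 1.32, SLC7A2 by 0.87, SLC7A11 by 0.76 and SLC7A6 by 0.56. In MDA-MB-231, SLC16A4 was higher in ERK5-ko by 2.95 (adjusted p = 5.17e-09), SLC38A4 by 2.27, SLC2A12 by 1.66 and SLC1A1 by 1.59, and SLC7A11 was lower by 1.14 and SLC7A1 by 0.89. SLC16A3, SLC16A4, SLC1A3, SLC7A1, SLC7A2, SLC7A6, SLC7A11, SLC2A8 and SLC2A12 passed in both lines in opposite directions. These 9 are 23.1% of the members, against 20.1% of all tested genes. In both lines SLC1A7 was higher in ERK5-ko (2.56% of the members, against 5.47% of all) and SLC16A6 lower (2.56%, against 3.58% of all). In MDA-MB-231 these calls rest on few reads. SLC1A7 had 6 and 11 reads in MDA-MB-231 ERK5-ko and 2 and 0 in MEK5DD. SLC16A6 had 3 and 2 against 23 and 13 there. As given above, it met the filter only through Hs-578T MEK5DD, so a higher value in MEK5DD of Hs-578T was built in. The SLC1A7 call in MDA-MB-231 was lost with a pseudocount of 1 (adjusted p = 0.0907) and without ERK5-ko replicate 2 or either MEK5DD replicate. The SLC16A6 call in MDA-MB-231 was lost without ERK5-ko replicate 2 or MEK5DD replicate 1. Of the 9, SLC16A3 was higher in MDA-MB-231 by 0.31 (adjusted p = 0.0424), a call lost when any one of the 4 libraries was left out (adjusted p between 0.0641 and 0.228). Leaving out a library compared also ended a call of SLC1A3, SLC2A8, SLC7A1 and SLC7A11 in Hs-578T and of SLC7A2 in MDA-MB-231 (adjusted p between 0.0511 and 0.153). Between the lines, the MEK5DD effect was higher in MDA-MB-231 for 6 members (21.3% of all tested genes) and lower for 9 (18.2% of all), and the former count was 12 without Hs-578T MEK5DD replicate 2. SLC7A11 was among the former, at 1.11 (standard error 0.26, adjusted p = 0.00564), and SLC38A4 among the latter, at -1.86 (adjusted p = 1.88e-05). SLC38A4 had at most 2 reads in each Hs-578T library and could hardly fall there, so its difference largely repeats its fall in MDA-MB-231.

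Of the partners of the carriers, BSG, basigin, the chaperone of MCT1 and MCT4, was at an RPKM of 716 to 1101 in all libraries and, like SLC16A3, fell in Hs-578T ERK5-ko, by 0.51 (standard error 0.10, adjusted p = 0.00217), from 1101 and 1030 to 779 and 716. EMB, embigin, the other chaperone of monocarboxylate transporters named above, moved with the label in both lines. It rose in ERK5-ko by 0.45 in MDA-MB-231 (adjusted p = 0.0129) and 0.47 in Hs-578T (adjusted p = 0.00445) and fell in MEK5DD by 0.61 (adjusted p = 0.000675) and 0.74 (adjusted p = 0.000639), with a level of 9.20 to 21.2 in MDA-MB-231 and 28.9 to 77.1 in Hs-578T. SLC3A2, the heavy chain CD98 that pairs with the SLC7A light chains, rose with SLC7A11 and SLC7A6 in MDA-MB-231 MEK5DD, from 136 and 140 to 217 and 252 (0.76, standard error 0.13, adjusted p = 0.000681), and did not pass in Hs-578T ERK5-ko (0.18, adjusted p = 0.309). TXNIP, the arrestin-like protein that removes GLUT1 from the surface, was at 161 and 161 in MDA-MB-231 parental controls and 323 and 262 in ERK5-ko (0.85, adjusted p = 0.0576), against 1.77 and 3.36 and 0.794 and 0.698 in Hs-578T (-1.25, adjusted p = 0.00456). ARRDC4, a relative of TXNIP, rose in Hs-578T ERK5-ko by 0.51 (adjusted p = 0.0363), and SLC3A1, the kidney heavy chain, was under the filter. Of the 6 genes listed here 5 were tested, and 1 of them passed in ERK5-ko and 2 in MEK5DD of MDA-MB-231, against 4 and 1 in Hs-578T. Of all tested genes, 6.91% rose and 10.4% fell in MDA-MB-231 ERK5-ko, and 17.5% rose and 23.8% fell in its MEK5DD. In Hs-578T, 19.7% rose and 19.7% fell in ERK5-ko, and 6.44% rose and 17.0% fell in MEK5DD. Whether so small a list departs from these shares was not tested.

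Of 12 enzymes at the entry of the carried substrates, 9 were tested. LDHA, which makes lactate from pyruvate, was at 996 to 1460 in all libraries but those of Hs-578T MEK5DD, where it fell to 663.5 and 678.5 from 1107 and 996 (-0.65, standard error 0.10, adjusted p = 0.0011). It did not pass in Hs-578T ERK5-ko (0.15, adjusted p = 0.253), where SLC16A3 fell. HK2, an inducible hexokinase, rose where SLC7A11 did, in MDA-MB-231 MEK5DD by 0.39 (adjusted p = 0.0119) and in Hs-578T ERK5-ko by 0.39 (adjusted p = 0.0131). ASNS, asparagine synthetase, was lower in MDA-MB-231 ERK5-ko by 0.34 (adjusted p = 0.0484) and higher in Hs-578T MEK5DD by 0.58 (adjusted p = 0.0028). GCLC and GCLM, the subunits of the enzyme that uses cysteine for glutathione, did not pass against parental controls in any group, whereas ARG2, an arginase, rose by 0.71 in MDA-MB-231 MEK5DD (adjusted p = 0.0026) and fell by 1.11 in Hs-578T ERK5-ko (adjusted p = 0.000166). Of the 9 enzymes tested, 1 passed in MDA-MB-231 ERK5-ko, 3 in Hs-578T ERK5-ko and 2 in MEK5DD of each line. The shares of all tested genes given above for the partners apply to these counts and to those that follow. Of 10 other amino acid transporters, 8 were tested, with 1 higher in MDA-MB-231 ERK5-ko (SLC6A8), 1 higher and 1 lower in Hs-578T ERK5-ko (SLC36A1 and SLC43A3), 3 higher in MDA-MB-231 MEK5DD (SLC6A6, SLC36A1 and SLC43A3) and 2 lower in Hs-578T MEK5DD (SLC6A6 and SLC43A2). SLC36A1, the proton-coupled amino acid carrier of lysosomes, rose by 0.92 in MDA-MB-231 MEK5DD and by 0.69 in Hs-578T ERK5-ko, the same comparisons as SLC7A11.

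**Figure D5:**
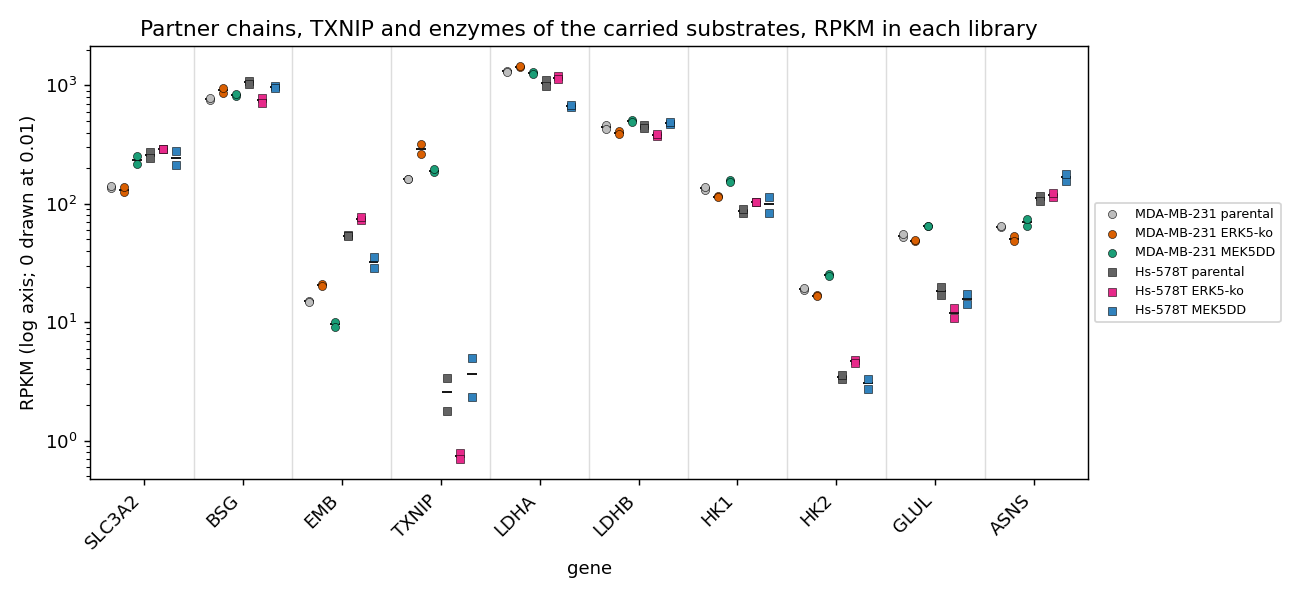
RPKM (log axis) of partner chains, TXNIP and enzymes in each of the 12 libraries, with circles for MDA-MB-231, squares for Hs-578T, colours for the groups and short lines for group means of 2 libraries. EMB is higher in ERK5-ko and lower in MEK5DD than in parental controls in both lines, and LDHA is lowest in Hs-578T MEK5DD.

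Levels between genes depend on the length used for the RPKM. The length recovered from the deposited values was the mean length of a gene's annotated transcripts for 80.9% of 9448 well-covered genes, which was 1061 bases for SLC2A1 against 3670 for its longest transcript. Scaled to the longest GENCODE 29 transcript, a choice made after seeing the data, SLC2A1, SLC1A5 and SLC38A2 still led their families in all 12 libraries and SLC16A3 in the 6 of MDA-MB-231. SLC16A1 led the SLC16A genes in all 6 Hs-578T libraries by RPKM, but on the other scale in 2 of them. SLC7A1 stood above SLC7A5 by RPKM in both MDA-MB-231 MEK5DD libraries, and SLC7A5 led everywhere on the other scale. The ratio of SLC16A3 to SLC16A1 in Hs-578T was 0.319 to 0.387 on the longest-transcript scale in parental controls and MEK5DD and 0.0542 to 0.0737 in ERK5-ko.

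The 19 members under the filter were largely carriers of other tissues. Of these, 10 had 3 reads or fewer in every library, among them SLC2A2, the glucose carrier of liver and pancreatic islets, SLC2A7, SLC1A6, SLC7A3 and SLC16A8. SLC7A14, SLC38A8 and SLC38A11 had 1 or 2 reads over all libraries. SLC16A10, a carrier of aromatic amino acids, stood just under the filter at 0.374 to 0.559 in MDA-MB-231 and at most 0.0182 in Hs-578T. The spans of 28 members overlap a gene on the opposite strand, so that their counts may hold reads of the partner if strand was not used.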

How the data were processed

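The authors deposited RPKM values, reads scaled to gene length and library total, for 12 libraries made with a stranded mRNA kit from cells at 70% confluence. The submitters' processing notes name bcl2fastq, Trimmomatic 0.32, TopHat2 2.1.1, R 3.3.1, DESeq2 1.12.4 and GRCh38, and the counting tool and its use of strand are not given in the sources used here. All 12 columns were matched to a sample, with 0 left over, and groups follow cell line and label. With a length chosen for each gene, the RPKM values gave back whole reads at a tolerance of 0.001 reads (100.0% of values). Because lengths were chosen to give whole reads, this does not test the library totals. With totals 1% off and the same lengths, 0 of 500 genes gave whole reads, an outcome fixed in advance by keeping those lengths. The floor of 3 reads covers counting error only.

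log2(RPKM + 0.5) was fitted for 13737 protein-coding genes, those that reached an RPKM of 0.5 in 2 libraries or more, with limma 3.58.1 (R 4.3.3) as 6 group means with 6 residual degrees of freedom and a variance trend, with Benjamini-Hochberg adjustment within each of 9 comparisons. The fit was tested on simulated data. Identity of coding sequences came from GENCODE 29 and promoters from RefSeq. Tables were handled in Python 3.11.15 with pandas 2.3.3 and numpy 2.4.6, and plots were drawn with matplotlib 3.10.9.

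The transporters, gene lists, tests and alternatives were chosen with earlier results of these data known. Genes were named by rule: the 2 members of each family with the highest mean RPKM, the 4 largest and 4 smallest passing changes in each comparison with parental controls among members with a mean RPKM of at least 1, the 4 lactate carriers, and pairs with proteins over 90% identical. Others are named for a count, or were chosen after their values were seen. Values of 1 transporter, which stays in the counts, and of 1 enzyme are not reported here. Alternatives changed the pseudocount, the filter, the scaling, the model, the fold thresholds and the libraries kept.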

Additional observations from a re-analysis of the deposited data

Results flagged for a closer look

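The effect of ERK5-ko against parental controls differed between the lines, by limma's test of the difference at an adjusted p under 0.05, for 11 of the named transporters. The difference, MDA-MB-231 minus Hs-578T on the log2 scale, was 2.41 for SLC16A3, 2.08 for SLC2A12, 1.87 for SLC1A1, 1.53 for SLC16A4 and 0.82 for SLC38A10. It was -0.69 for SLC7A6, -0.78 for SLC7A1, -0.79 for SLC7A11, -0.81 for SLC38A1, -0.90 for SLC1A7 and -1.87 for SLC7A2. Each of the 3 calls for SLC7A1, SLC7A11 and SLC38A1 was lost without any one of several single libraries (adjusted p between 0.0506 and 0.135).

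The effect of MEK5DD differed between the lines for 6 of them. The difference was 1.11 for SLC7A11, 0.63 for SLC7A1 and 0.59 for SLC7A6, and it was -1.37 for SLC2A10, -1.86 for SLC38A4 and -2.61 for SLC16A4. With at most 2 reads in each Hs-578T library, SLC38A4 could hardly fall there, so its difference largely repeats its fall in MDA-MB-231. The call for SLC7A1 was lost under 15 alternatives, among them median-ratio and quantile scaling, a pseudocount of 0.1 and 10 single libraries left out (adjusted p between 0.0504 and 0.135). Groups of 2 libraries are too small for a test of single libraries that stand apart.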

How the results depend on the processing

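Of 1008 values of named transporters under the alternatives, 933 kept direction and side of the threshold, 55 no longer passed, 19 passed newly, and SLC7A1 in Hs-578T MEK5DD reversed, to -0.31 without MEK5DD replicate 2 against 0.33 without replicate 1. With the study's fold thresholds of 1.5 and 0.5 beside the adjusted p, members higher and lower were 4 and 1 in MDA-MB-231 ERK5-ko, 3 and 3 in Hs-578T ERK5-ko, and 4 and 6 in MDA-MB-231 MEK5DD, and 1 was lower in Hs-578T MEK5DD. In ERK5-ko against MEK5DD, 2 were then lower in MDA-MB-231, while Hs-578T had 4 higher and 5 lower, and for the differences between the lines 1 was lower for ERK5-ko and 5 for MEK5DD. With the Hs-578T libraries alone, 2 members were higher in ERK5-ko, 0 in MEK5DD and 4 in ERK5-ko against MEK5DD. Members higher in Hs-578T MEK5DD, 1 as reported, were 2 with a pseudocount of 1, 4 with median-ratio scaling and 3 with quantile normalization. Without the filter, 4 members were lower for the ERK5-ko difference. Median-ratio scaling shifted the median of all genes between parental lines by -0.21 and quantile normalization by -0.11.

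With one library left out, its partner is assumed to vary like the other groups. Members higher and lower then ranged from 4 to 7 and 2 to 5 in MDA-MB-231 ERK5-ko, 2 to 9 and 9 to 14 in Hs-578T ERK5-ko, 4 to 11 and 10 to 13 in MDA-MB-231 MEK5DD, and 1 to 2 and 4 to 11 in Hs-578T MEK5DD. For ERK5-ko against MEK5DD they ranged from 10 to 16 and 7 to 12 in MDA-MB-231 and from 4 to 15 and 9 to 11 in Hs-578T, for parental lines from 14 to 14 and 17 to 19, and for the differences between the lines from 10 to 16 and 3 to 10 (ERK5-ko) and 4 to 12 and 6 to 9 (MEK5DD). MDA-MB-231 MEK5DD had 5 higher without parental replicate 2 and 4 without MEK5DD replicate 1. Hs-578T ERK5-ko had 3 higher without parental replicate 1 and 2 without ERK5-ko replicate 2, and Hs-578T MEK5DD had 2 higher without parental replicate 1 or either MEK5DD replicate.

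Replicate numbers are shared by the groups of a line, and the labels do not say what a number marks. With 2 libraries a group, the deviations of same-numbered libraries from their group means correlated at 0.107 to 0.541 over all tested genes. With the replicate number as a block, 2 members were higher in Hs-578T MEK5DD in place of 1, and 9 in Hs-578T ERK5-ko in place of 6. No other count moved by over 1.5 times. Among named transporters, SLC1A5 (adjusted p = 0.0213) and SLC38A1 (0.00494) then passed in Hs-578T ERK5-ko and SLC38A2 (0.0482) in Hs-578T MEK5DD, and the block changed no other call of theirs.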
